A study of Arabidopsis thaliana with 36 samples.

Results

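The genes described here are 80 Arabidopsis thaliana genes with lower transcript levels in roots at 27 °C than at 21 °C, in the wild type and in both mutants, and with little temperature difference in shoots. They were chosen from 32833 counted genes on these libraries themselves. For each gene the counts were turned into CPM ( the share of the gene among all reads in genes of the library, times 1000000). L is the log2 ratio of the mean CPM at 27 °C to that at 21 °C, with 1 CPM added to both. Of all genes, 14337 had a mean of at least 3 CPM over the 18 root libraries and also over the 18 shoot libraries, and 7101 of these had an L between -0.3 and 0.3 in the shoots of all 3 genotypes. The 80 genes whose highest root L over the genotypes was lowest were taken. The differences between the temperatures are therefore what chose the genes, and they are given below as a description, with no test.

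Seedlings were of 3 genotypes: Col-0, the wild type, and the mutants hy5 and phyAB. They were sampled 6 days after germination, with roots and shoots taken separately. The labels give 3 days before a shift and 3 days after it for every library. The day temperature was 21 °C or 27 °C. Days had 16 h of light, and nights were at 15 °C or 21 °C respectively. The 12 groups of genotype, organ and temperature held 3 libraries each, 36 in all. The labels do not say which alleles the mutants carry, and the exposure to 27 °C is called 4 h in one label and 3 days in another, so its length is not known here. HY5 is a bZIP transcription factor that acts downstream of the photoreceptors, and PHYA and PHYB encode phytochromes, the receptors of red and far-red light.

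As background, roots take up nitrate and reduce it through nitrate and nitrite reductase to ammonium, which glutamine and glutamate synthase build into amino acids, and the carbon skeletons for this come from glycolysis and the citric acid cycle. The root tip holds the meristem, whose cells pass through mitosis under the control of B-type cyclins and of the anaphase-promoting complex. Lipid-transfer proteins, acyl-CoA synthetases and glycerol-3-phosphate acyltransferases make and move the lipids of cutin, suberin and wax, which seal the surfaces of plant organs.

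Each library held 14810514 to 24006279 reads in genes. Transcripts of the mutated genes were lower in the root libraries of the mutants, with HY5 at 11.1 to 14.2 CPM in hy5 roots against 44.0 to 52.8 CPM in Col-0 roots, and PHYA at 14.5 to 22.6 CPM in phyAB roots against 132 to 189.8 CPM. HY5 transcripts in shoots overlapped between hy5 and Col-0, at 5.21 to 7.76 and 5.56 to 9.80 CPM, and so did PHYB transcripts between phyAB and Col-0 shoots, at 62.1 to 68.3 and 62.5 to 83.2 CPM. PHYB stood at 32.7 to 43.1 CPM in phyAB roots and 89.7 to 116 CPM in Col-0 roots. Organ labels fitted the markers: the sum of 6 root hair genes was 341 to 598 CPM in roots and 0.522 to 5.95 CPM in shoots. The sum of 7 green tissue genes was 32.6 to 524 CPM in roots and 49649 to 66219 CPM in shoots. The phyAB root libraries numbered 3 carry a source name that says shoot, and the title and tissue that say root were followed. Shoots of phyAB held seed storage and oil body transcripts at 199.6 to 2279.5 CPM in sum, against at most 6.76 CPM in the shoots of Col-0 and hy5. Test counts over the 80 genes are also given without both phyAB root libraries numbered 3. For phyAB shoots they are given without the library richest in seed transcripts at each temperature. The other phyAB shoot libraries hold such transcripts too, so no phyAB shoot count is free of them.

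Warmth marked the roots in other ways, which stand beside every root value below. Between 21 °C and 27 °C the green tissue sum had medians of 231 and 472 CPM in the wild type, 41.2 and 111 CPM in hy5 and 91.6 and 182 CPM in phyAB roots, and all 7 genes had a higher mean at 27 °C in each genotype. All 5 xylem and all 4 phloem markers also had higher means at 27 °C in the roots of each genotype. Of 4 root meristem markers, 3 had a lower mean at 27 °C in Col-0 and in hy5 and 2 in phyAB. Of 6 root hair markers, 5 were lower in Col-0 roots, 6 in hy5 roots and 3 in phyAB roots. In whole roots, fewer cells of a type and less RNA per cell cannot be told apart, and the part of these markers in the values of the 80 genes was not tested.

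The size of the difference was modest for most of the 80 genes. The median L was -0.44 in roots of Col-0, -0.54 in roots of hy5 and -0.47 in roots of phyAB, and the median share of the mean CPM at 21 °C that was found at 27 °C, with nothing added, was 72.4%, 66.5% and 70.7%. In shoots the medians were -0.08, -0.04 and -0.13. L in shoots was below 0 for 51, 47 and 68 of the 80 genes (63.8%, 58.8% and 85%). Beside these stand 46.1%, 42.0% and 51.1% of the 7101 genes in the shoot window. The choice bounded these shoot values, and they are a description. Only SBP2 had a root L at or below -1 in all 3 genotypes. The lowest root L was found in hy5 for 48 genes, in phyAB for 20 and in Col-0 for 12. These counts come from the values that chose the genes, and the same share over all genes was not computed. Among the 14337 genes at the minimum level, root L was at or below -1 for 139 in hy5, 84 in Col-0 and 83 in phyAB. The counts here and by role below are a description of the choice. At the edge of the choice, RIP4, AT5G50890 and FVE were just inside with a highest root L of -0.34, -0.33 and -0.33. PREP1, OEP80 and PDF2 were just outside with -0.33, -0.32 and -0.32. The boundary is therefore not a natural gap, and other settings of the rule exchange part of the 80 genes.

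**Figure D1:**
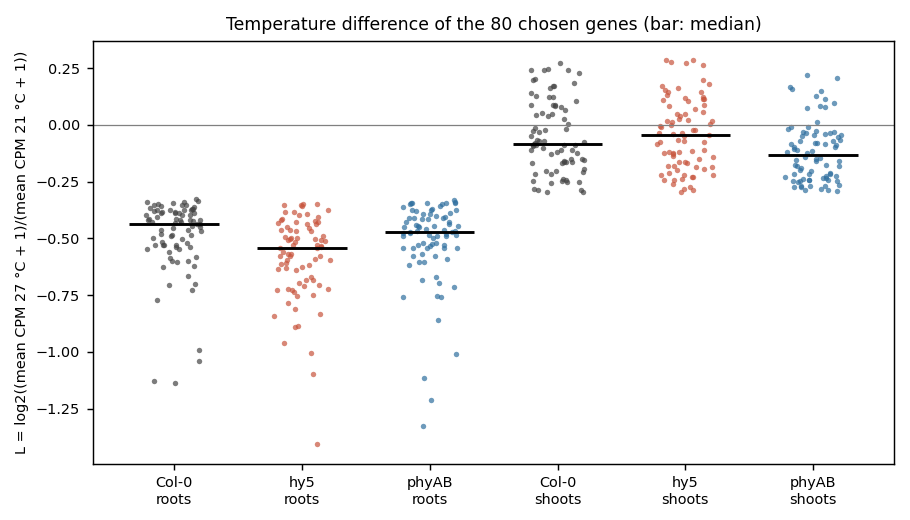
L of the 80 genes (y axis, log2 ratio of mean CPM at 27 °C to 21 °C with 1 CPM added) in roots and shoots of Col-0, hy5 and phyAB. Each point is a gene and each bar the median. Root points lie at or below -0.33 and shoot points between -0.3 and 0.3, both by the choice of the genes.

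All 3 libraries at 27 °C lay below all 3 at 21 °C for 79 of 80 genes in Col-0 roots, 79 in hy5 roots and 77 in phyAB roots. Among the 14337 genes at the minimum level this held for 23.8%, 23.9% and 22.2%, and since the rule used these differences, nothing is read from the comparison. The exceptions were PMAT1 in Col-0, AT3G19030 in hy5, and AER, JAZ3 and AT1G15290 in phyAB. Without both phyAB root libraries numbered 3 the phyAB count was again 77. In shoots the same order was found for 26, 18 and 29 of the 80 genes in Col-0, hy5 and phyAB (32.5%, 22.5% and 36.3%), beside 30.0%, 27.7% and 30.8% of the genes at the minimum level. The choice also bounded the shoot differences, so nothing is read from this either.

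Nitrogen uptake and assimilation accounted for 7 of the 80 genes. NIR1 (AT2G15620, chr2:6810395-6812941, plus strand of TAIR10.1) encodes nitrite reductase, which turns nitrite into ammonium in plastids. In Col-0 roots, NIR1 stood at 387, 474 and 425 CPM at 21 °C and 188, 189 and 210.2 CPM at 27 °C. The hy5 roots held 757, 701 and 877 CPM at 21 °C and 273, 281 and 324 CPM at 27 °C, and the phyAB roots 486, 406 and 501 CPM at 21 °C and 259.7, 270.1 and 296 CPM at 27 °C. No library at 27 °C reached the lowest at 21 °C of its genotype, and the hy5 roots at 21 °C were the highest of all root groups. L in roots was -1.13 for Col-0, -1.41 for hy5 and -0.75 for phyAB. Shoot libraries held 235 to 504 CPM (median 395), with L of -0.08, -0.22 and -0.28.

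LBD38 (AT3G49940) and LBD39 (AT4G37540) encode LOB domain factors known to repress nitrogen-responsive genes. The Col-0 root libraries gave 113, 124 and 122 CPM at 21 °C and 89.9, 76.8 and 90.4 CPM at 27 °C for LBD38. Its values were 101, 100.3 and 96.4 CPM at 21 °C and 67.2, 67.1 and 62.2 CPM at 27 °C in hy5 and 110.1, 109 and 101 CPM at 21 °C and 72.9, 75.3 and 73.0 CPM at 27 °C in phyAB. The groups did not overlap in any genotype. LBD39 had L of -0.45, -0.71 and -0.76. TGA4 (AT5G10030), a bZIP factor of the root nitrate response, had root L of -0.47, -0.45 and -0.47 and overlaps AT5G10040 and AT5G10050. GLU2 (AT2G41220) encodes a glutamate synthase and AAP1 (AT1G58360) an amino acid importer, while PTR4 (AT2G02020) belongs to the peptide transporter family. Their highest root L over the genotypes were -0.34, -0.38 and -0.38.

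Central carbon, organic acid and amino acid metabolism held 9 of the 80 genes. Of these 8 had their lowest root L in hy5, beside 48 of all 80, a description of the choice with no share over all genes. MAB1 (AT5G50850, chr5:20689243-20693470, plus strand) encodes a subunit of the mitochondrial pyruvate dehydrogenase. MAB1 was read at 442, 459 and 448 CPM at 21 °C and 297, 307 and 310.0 CPM at 27 °C in Col-0 roots. It was read at 482, 433 and 467 CPM at 21 °C and 303, 294 and 303 CPM at 27 °C in hy5 roots, and at 422, 422 and 444 CPM at 21 °C and 298, 314 and 306 CPM at 27 °C in phyAB roots. Values were nearly alike in the 3 genotypes, and the temperatures did not overlap in any of them. MAB1 overlaps AT5G50860 on the opposite strand, and the sources used here do not say whether counting used strand. AT1G66430 encodes a sugar kinase of the pfkB type. In Col-0 roots, AT1G66430 stood at 39.6, 45.2 and 39.8 CPM at 21 °C and 26.8, 30.4 and 27.5 CPM at 27 °C. The hy5 roots held 30.2, 32.3 and 31.2 CPM at 21 °C and 18.5, 19.1 and 18.4 CPM at 27 °C, and the phyAB roots 30.5, 31.5 and 34.0 CPM at 21 °C and 23.2, 21.6 and 25.0 CPM at 27 °C. Here Col-0 was the highest genotype at each temperature. L in roots was -0.54 for Col-0, -0.71 for hy5 and -0.44 for phyAB.

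AAE3 (AT3G48990), an oxalyl-CoA synthetase, held 356 to 966 CPM (median 576) in roots. LPD1 (AT3G16950), a lipoamide dehydrogenase of plastids, had L of -0.39, -0.54 and -0.39. ATTPPA (AT5G51460) is a trehalose-6-phosphate phosphatase, and AT2G35390, AT2G05830 and AT5G11880 are annotated as enzymes of nucleotide and amino acid metabolism.

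Lipid, sterol and cuticle genes numbered 7. LTPG2 (AT3G43720, chr3:15615386-15617309, minus strand) encodes a lipid-transfer protein held to the membrane by a lipid anchor. Roots of Col-0 gave 9.13, 10.4 and 8.44 CPM at 21 °C and 3.97, 4.05 and 4.03 CPM at 27 °C for LTPG2. Its values were 15.5, 14.1 and 20.3 CPM at 21 °C and 10.1, 8.26 and 9.29 CPM at 27 °C in hy5 and 10.6, 13.3 and 12.4 CPM at 21 °C and 5.46, 5.53 and 5.5 CPM at 27 °C in phyAB. All warm values lay below all cool ones in each genotype. Shoots held 73.1 to 105 CPM (median 84.6), above every root library. SMO1-1 (AT4G12110) encodes a sterol-4alpha-methyl oxidase of sterol synthesis. In Col-0 roots, SMO1-1 stood at 37.6, 42.2 and 42.4 CPM at 21 °C and 26.5, 29.6 and 27.1 CPM at 27 °C. The hy5 roots held 45.2, 44.7 and 50.9 CPM at 21 °C and 24.9, 25.2 and 27.1 CPM at 27 °C, and the phyAB roots 46.5, 39.0 and 46.2 CPM at 21 °C and 29.3, 29.7 and 32.1 CPM at 27 °C. The temperatures did not overlap, and hy5 at 21 °C lay above Col-0 at 21 °C.

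LTP5 (AT3G51600), another lipid-transfer protein, was low in roots. LTP5 was read at 2.61, 2.46 and 2.13 CPM at 21 °C and 0.897, 1.6 and 1.58 CPM at 27 °C in Col-0 roots. It stood at 7.96, 8.93 and 6.46 CPM at 21 °C and 5.30, 4.36 and 5.91 CPM at 27 °C in hy5 roots, and at 11.0, 20.4 and 15.3 CPM at 21 °C and 5.09, 6.80 and 4.93 CPM at 27 °C in phyAB roots. L in roots was -0.53 for Col-0, -0.50 for hy5 and -1.33 for phyAB, and the last is the lowest phyAB value of the group. LACS2 (AT1G49430) encodes the long-chain acyl-CoA synthetase of cutin formation. The Col-0 root libraries gave 76.7, 85.9 and 82.4 CPM at 21 °C and 72.9, 59.7 and 58.7 CPM at 27 °C for LACS2. Its values were 45.9, 50.0 and 40.5 CPM at 21 °C and 32.4, 28.9 and 26.9 CPM at 27 °C in hy5 and 31.1, 35.8 and 32.2 CPM at 21 °C and 30.9, 20.5 and 23.3 CPM at 27 °C in phyAB. The other members were GPAT3 (AT4G01950), a glycerol-3-phosphate acyltransferase, ACBP1 (AT5G53470), an acyl-CoA binding protein, and ACP3 (AT1G54630), an acyl carrier protein. Their highest root L over the genotypes were -0.35, -0.46 and -0.38.

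Redox, conjugation and efflux genes numbered 10. SBP2 (AT4G14040, chr4:8100349-8103094, minus strand), a selenium-binding protein, ranked first among the 80 genes. In Col-0 roots, SBP2 stood at 13.6, 12.6 and 16.7 CPM at 21 °C and 6.15, 5.09 and 6.64 CPM at 27 °C. The hy5 roots held 19.8, 18.9 and 17.3 CPM at 21 °C and 9.72, 9.18 and 7.54 CPM at 27 °C, and the phyAB roots 9.13, 11.8 and 9.45 CPM at 21 °C and 4.15, 3.93 and 4.30 CPM at 27 °C. The temperatures were far apart in each genotype, at about equal ratios: L in roots was -1.14 for Col-0, -1.0 for hy5 and -1.12 for phyAB. Shoots held 151 to 237 CPM (median 187) and the root mean was 5.53% of the shoot mean. SBP2 has a near-identical neighbouring gene, so reads that fit both copies cannot be assigned and its level is uncertain. AT2G34355 encodes a transporter of the major facilitator superfamily. AT2G34355 was read at 11.8, 10.2 and 8.25 CPM at 21 °C and 6.19, 6.55 and 5.23 CPM at 27 °C in Col-0 roots. It was read at 17.2, 13.5 and 13.8 CPM at 21 °C and 6.28, 5.95 and 6.94 CPM at 27 °C in hy5 roots, and at 13.0, 14.2 and 13.8 CPM at 21 °C and 9.40, 8.96 and 9.10 CPM at 27 °C in phyAB roots. L in roots was -0.67 for Col-0, -1.10 for hy5 and -0.53 for phyAB.

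MDAR1 (AT3G52880), a monodehydroascorbate reductase that regenerates ascorbate, was abundant at 177 to 393 CPM (median 242) in roots, with L of -0.37, -0.43 and -0.37. ROC4 (AT3G62030) encodes a cyclophilin of chloroplasts. Roots of Col-0 gave 45.0, 47.8 and 46.8 CPM at 21 °C and 31.8, 31.6 and 32.6 CPM at 27 °C for ROC4. Its values were 28.0, 26.8 and 32.2 CPM at 21 °C and 17.6, 18 and 19.3 CPM at 27 °C in hy5 and 28.6, 35.2 and 33.2 CPM at 21 °C and 16.9, 17.9 and 17.2 CPM at 27 °C in phyAB. In each genotype the warm values lay below the cool ones, while the green tissue sum was higher at 27 °C in the same roots. AER (AT5G16970) is an alkenal reductase, UGT74D1 (AT2G31750) a glucosyltransferase and PMAT1 (AT5G39050) an acyltransferase. PMAT1 and AER overlapped between the temperatures in Col-0 and in phyAB roots respectively. The group also held AT4G31360, a selenium-binding protein, AT1G71870, a MATE efflux carrier, and AT3G44190, an oxidoreductase.

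Growth regulators and cell division genes numbered 5, and 4 of them had their lowest root L in hy5, beside 48 of all 80. This count too describes the choice, with no share over all genes. ANT (AT4G37750, chr4:17739514-17742407, plus strand) encodes AINTEGUMENTA, an AP2-type factor that promotes organ growth. ANT was read at 9.87, 16.0 and 11.6 CPM at 21 °C and 9.74, 5.75 and 5.95 CPM at 27 °C in Col-0 roots. It stood at 14.0, 14.6 and 11.1 CPM at 21 °C and 9.0, 8.16 and 8.50 CPM at 27 °C in hy5 roots, and at 5.28, 5.85 and 5.27 CPM at 21 °C and 3.41, 2.88 and 3.48 CPM at 27 °C in phyAB roots. In Col-0 the highest warm library came close to the lowest cool one, and phyAB was below Col-0 at both temperatures. AT1G63100 encodes a GRAS family transcription factor. In Col-0 roots, AT1G63100 stood at 34.3, 36 and 37.2 CPM at 21 °C and 27.3, 26.2 and 25.4 CPM at 27 °C. The hy5 roots held 34.7, 43.3 and 44.3 CPM at 21 °C and 20.6, 24.7 and 27.7 CPM at 27 °C, and the phyAB roots 37.4, 35.6 and 42.8 CPM at 21 °C and 24.5, 23.0 and 28.3 CPM at 27 °C. CYCB1;1 (AT4G37490) is a B-type cyclin of mitosis. The Col-0 root libraries gave 17.9, 19.2 and 17.1 CPM at 21 °C and 13.0, 15.1 and 13.0 CPM at 27 °C for CYCB1;1. Its values were 16.8, 17.6 and 23.3 CPM at 21 °C and 10.6, 12.5 and 15.6 CPM at 27 °C in hy5 and 19.0, 22.4 and 18.6 CPM at 21 °C and 16.1, 14.6 and 13.8 CPM at 27 °C in phyAB. The temperatures did not overlap in any genotype for either gene.

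CDC20.2 (AT4G33260), an activator of the anaphase-promoting complex, had root L of -0.35, -0.64 and -0.47. FVE (AT2G19520), a WD-40 protein known from the control of flowering time, had -0.33, -0.51 and -0.48 and was the last gene taken.

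The sequences before the start of 3 of these genes are printed because mitotic genes are known to carry the MSA element, whose core AACGG is set in capitals where it was found on either strand. Each line gives the 250 bases before the annotated start, 5′ to 3′ in the direction of the gene, from the TAIR10.1 assembly and RefSeq annotation. CYCB1;1 is shown from chr4:17624309-17624558, AT1G63100 from chr1:23402177-23402426 and CDC20.2 from chr4:16043550-16043799, all on the minus strand.
CYCB1;1: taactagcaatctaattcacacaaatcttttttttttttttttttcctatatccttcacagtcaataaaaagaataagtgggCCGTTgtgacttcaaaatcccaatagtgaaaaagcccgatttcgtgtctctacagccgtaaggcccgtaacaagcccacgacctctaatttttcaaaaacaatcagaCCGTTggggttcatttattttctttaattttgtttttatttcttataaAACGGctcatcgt
AT1G63100: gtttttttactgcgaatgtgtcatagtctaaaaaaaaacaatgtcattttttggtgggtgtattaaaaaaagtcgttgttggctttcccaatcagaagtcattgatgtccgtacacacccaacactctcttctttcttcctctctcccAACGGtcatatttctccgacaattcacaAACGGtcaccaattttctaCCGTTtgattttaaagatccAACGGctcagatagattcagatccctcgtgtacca
CDC20.2: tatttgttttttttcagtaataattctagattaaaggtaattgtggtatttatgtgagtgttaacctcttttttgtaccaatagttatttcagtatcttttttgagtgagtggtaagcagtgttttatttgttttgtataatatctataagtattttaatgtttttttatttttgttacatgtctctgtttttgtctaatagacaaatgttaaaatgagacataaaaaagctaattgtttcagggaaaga
CYCB1;1 held 3 matches, AT1G63100 held 4 and CDC20.2 held 0. The core was found before 26.3% of the 80 genes and before 22.6% of the genes at the minimum level. A match is a string of letters and shows no binding.

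Genes of RNA, translation and protein handling numbered 15, and 13 of these had their lowest root L in hy5, beside 48 of all 80. As for the other roles, no share over all genes was computed, so nothing about the role is read from it. GRP2 (AT4G38680, chr4:18071449-18073182, minus strand) encodes a glycine-rich RNA-binding protein with a cold shock domain. In Col-0 roots, GRP2 stood at 278, 267 and 262 CPM at 21 °C and 172, 186 and 177 CPM at 27 °C. The hy5 roots held 219, 251 and 213 CPM at 21 °C and 126, 142 and 145 CPM at 27 °C, and the phyAB roots 207, 283 and 246 CPM at 21 °C and 161, 168 and 155 CPM at 27 °C. No warm library reached a cool one of its genotype. DRB5 (AT5G41070) encodes a double-stranded RNA binding protein. DRB5 was read at 10.2, 10.4 and 10.5 CPM at 21 °C and 5.47, 7.82 and 7.02 CPM at 27 °C in Col-0 roots. It was read at 7.82, 10.3 and 9.59 CPM at 21 °C and 4.63, 4.87 and 6.09 CPM at 27 °C in hy5 roots, and at 11.3, 11.3 and 14.0 CPM at 21 °C and 8.35, 7.86 and 8.03 CPM at 27 °C in phyAB roots. L in roots was -0.55 for Col-0, -0.73 for hy5 and -0.54 for phyAB. The median L was -0.39 in Col-0 over all 15 genes. The other 13 include emb1027 (AT4G26300), an arginyl-tRNA synthetase, SDN1 (AT3G50100), a nuclease that degrades small RNAs, and MAP1B (AT3G25740), a methionine aminopeptidase. AT5G15220 is annotated as a ribosomal protein of the L27 family, AT1G09800 as a pseudouridine synthase, AT5G61330 as an rRNA processing protein, AT5G62030 as a diphthamide synthesis protein and AT1G52380 as a nucleoporin. AT5G62290, AT5G63220, AT5G35680, AT5G01230 and AT3G15180 complete the group.

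Signalling genes numbered 9. AT1G33260 encodes a protein kinase. Roots of Col-0 gave 13.7, 17.5 and 15.3 CPM at 21 °C and 10.4, 5.23 and 6.3 CPM at 27 °C for AT1G33260. Its values were 7.77, 6.41 and 5.78 CPM at 21 °C and 4.48, 3.85 and 3.5 CPM at 27 °C in hy5 and 5.33, 7.18 and 5.33 CPM at 21 °C and 2.89, 3.54 and 2.91 CPM at 27 °C in phyAB. The Col-0 libraries at 27 °C spread from 5.23 to 10.4 CPM, and still lay below those at 21 °C. AT5G67200 encodes a receptor kinase with leucine-rich repeats. In Col-0 roots, AT5G67200 stood at 13.4, 16.5 and 14.4 CPM at 21 °C and 9.57, 9.33 and 9.25 CPM at 27 °C. The hy5 roots held 14.4, 17.1 and 18.3 CPM at 21 °C and 9.16, 8.41 and 9.59 CPM at 27 °C, and the phyAB roots 18.3, 15.4 and 15.6 CPM at 21 °C and 11.2, 9.35 and 12.3 CPM at 27 °C. Groups at both temperatures stayed apart. MYB30 (AT3G28910, chr3:10911132-10913190, plus strand) encodes an R2R3 MYB factor known from the hypersensitive cell death response. MYB30 was read at 18.2, 21.1 and 17.3 CPM at 21 °C and 12.7, 12.1 and 13.4 CPM at 27 °C in Col-0 roots. It stood at 62.8, 62.3 and 60.3 CPM at 21 °C and 29.3, 30.7 and 33.8 CPM at 27 °C in hy5 roots, and at 39.6, 37.0 and 36.8 CPM at 21 °C and 21.6, 27.0 and 26.9 CPM at 27 °C in phyAB roots. L in roots was -0.53 for Col-0, -0.96 for hy5 and -0.57 for phyAB.

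JAZ3 (AT3G17860) is a repressor of jasmonate signalling, with L of -0.62, -0.44 and -0.36, and its phyAB groups overlapped. CRK29 (AT4G21410), a receptor-like kinase with cysteine-rich repeats, had -0.52, -0.89 and -0.46. ATMPK13 (AT1G07880), a MAP kinase, ROP9 (AT4G28950), a small GTPase, RIP4 (AT1G78430), annotated as a partner of such GTPases, and AT3G13690, a kinase, complete the group. ROP9 and ATMPK13 were among the lowest of the 80 genes, at 2.06 to 6.01 CPM (median 3.90) and 2.21 to 6.83 CPM (median 4.08) in roots, so counting noise weighs more on them.

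Cell wall genes numbered 3. PME44 (AT4G33220, chr4:16022269-16026428, plus strand) encodes a pectin methylesterase, which removes methyl groups from pectin. In Col-0 roots, PME44 stood at 5.72, 5.29 and 5.05 CPM at 21 °C and 3.67, 1.93 and 3.08 CPM at 27 °C. The hy5 roots held 8.25, 10.9 and 11.3 CPM at 21 °C and 6.33, 5.54 and 7.84 CPM at 27 °C, and the phyAB roots 5.99, 6.78 and 9.52 CPM at 21 °C and 3.26, 5.2 and 3.98 CPM at 27 °C. The cool and warm libraries did not overlap, at levels far below the 103 to 152 CPM (median 119) of shoots. AT1G66250 encodes a glycosyl hydrolase of the glucanase family. The Col-0 root libraries gave 25.5, 27.9 and 25.0 CPM at 21 °C and 18.5, 17.9 and 18.2 CPM at 27 °C for AT1G66250. Its values were 21.0, 23.6 and 20.4 CPM at 21 °C and 13.5, 13.5 and 15.6 CPM at 27 °C in hy5 and 24.7, 24.6 and 28.5 CPM at 21 °C and 17.1, 19.3 and 18.3 CPM at 27 °C in phyAB. AT2G28790, a thaumatin-like protein, had L of -0.53, -0.59 and -0.44. PME44 and AT1G66250 each overlap a gene on the opposite strand.

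For 15 genes no role is stated here. AT3G19030 (chr3:6563928-6564424, minus strand) is annotated as a TFIID subunit-like protein. AT3G19030 was read at 36.1, 32.5 and 27.2 CPM at 21 °C and 19.8, 18.5 and 22.7 CPM at 27 °C in Col-0 roots. It was read at 43.1, 32.1 and 19.0 CPM at 21 °C and 17.3, 19.1 and 15.1 CPM at 27 °C in hy5 roots, and at 30.9, 32.9 and 22.8 CPM at 21 °C and 12.9, 11.8 and 11.0 CPM at 27 °C in phyAB roots. One hy5 library at 21 °C, at 19.0 CPM, lay within the range of the warm ones, and phyAB had the lowest L of this group at -1.21. AT1G22885 is annotated as an uncharacterized protein, with L of -0.77, -0.89 and -0.48. ZW9 (AT1G58270), a TRAF-like protein, was abundant in roots at 231 to 418 CPM (median 329). The others were AT1G13810, AT1G15290, AT1G17130, AT1G48560, AT1G80280, AT2G03430, AT2G35480, AT3G17160, AT3G45210, AT4G18070, AT5G50890 and AT5G52882.

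**Figure D2:**
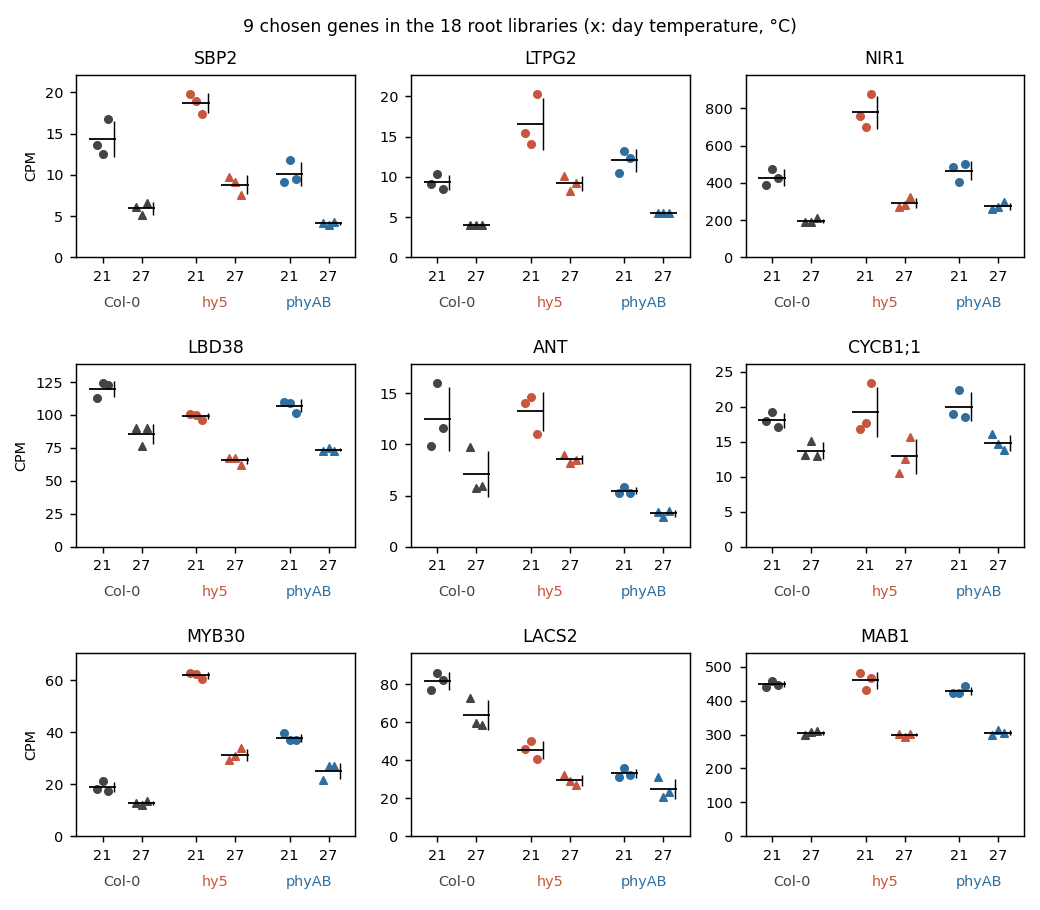
CPM (y axes, from 0) of 9 of the 80 genes in each of the 18 root libraries, by genotype and day temperature (circles 21 °C, triangles 27 °C). Horizontal bars are means and vertical bars SD of 3 libraries. MYB30 is highest in hy5, LACS2 is highest in Col-0 and MAB1 is alike in the 3 genotypes.

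The 80 genes lie on chromosomes 1 to 5 as 19, 11, 17, 15 and 18 genes. These are 23.8%, 13.8%, 21.3%, 18.8% and 22.5%, beside 25.9%, 15.1%, 20.2%, 15.2% and 23.6% of the genes at the minimum level. All are annotated as protein coding, as are 99.3% of those genes. Of the 80, 8 (10%) have another of the 80 within 10 genes, such as PME44 and CDC20.2, or LBD39 and CYCB1;1, beside 4.41% of the genes at the minimum level. Another annotated gene overlaps 28 of them (35%, beside 33.3%), and for 22 (27.5%, beside 29.1%) one on the opposite strand does. These shares are a description, with no test. Among 11 motifs searched on both strands in the 250 bases before the start, shares are given for the 80 genes and then for all genes at the minimum level. The G-box CACGTG, known to be bound by HY5, was found before 6.25% of the 80 genes against 7.61%, and the shorter ACGT core, which it contains, before 40.0% against 43.7%. The heat element GAANNTTC was found before 8.75% against 8.88%, and the sulfur element GAGAC before 32.5% against 24.7%. The auxin element TGTCTC, which always holds GAGAC on its other strand, was found before 13.8% against 10.4%. Site II (TGGGCC or TGGGCT) was found before 20.0% against 25.1%, and the telo-box AAACCCTA before 1.25%, which is 1 gene, against 3.60%. The W-box core TTGAC was found before 48.8% against 44.3%, the P1BS element GNATATNC before 6.25% against 5.32% and the evening element AAAATATCT before 2.5% against 2.4%. The MSA core is given above.

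Which organ held more of these transcripts was tested next, since the choice used levels in both organs only as a minimum. In the fit of all 36 libraries, 27 of 80 genes were higher in roots and 45 were lower, and 8 did not pass. Among the 21598 genes tested, 45.7% were higher and 45.0% lower. The genes tested, here and in the mutant comparisons below, include genes under the minimum level that the 80 had to reach. Their shares are therefore not matched to the 80 genes in level. The split of the 80 genes between the organs depends on the scaling. With the scaling factors (TMM) the median log2 difference between roots and shoots was 0.01 over all genes, and with library totals alone it was 0.78. On the unscaled values, 52 of the 80 genes were higher in roots and 20 lower, beside 71.1% and 24.4% of all genes, and 17 genes passed in opposite directions under these scalings. The median of the 80 genes was -0.20 and 0.57 on these scales, below that of all genes on each. Over the genes at the minimum level in both organs the median was -0.03 with the scaling factors. Under both scalings 27 genes were higher in roots and 20 were lower in roots. With scaling factors but without both phyAB root libraries numbered 3 the counts were 26 and 44, beside 45.5% and 44.6% of all genes, and without the phyAB shoot library richest in seed transcripts at each temperature 24 and 46, beside 43.7% and 46.2%.

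The largest differences towards roots were those of GLU2, AT3G44190 and ZW9. GLU2 ranged over 395 to 788 CPM (median 503) in roots and 44.0 to 71.8 CPM (median 50.4) in shoots, a log2 difference of 2.54 ± 0.033 (SE, adjusted p = 8.34e-35, edgeR). AT3G44190 ranged over 139 to 263 CPM (median 188) and 19.5 to 31.5 CPM (median 24.0), a difference of 2.19 ± 0.036 (SE, adjusted p = 5.76e-32, edgeR). For ZW9 the ranges were 231 to 418 CPM (median 329) and 29.1 to 86.3 CPM (median 42.6), and the difference 1.93 ± 0.039 (SE, adjusted p = 1.98e-29, edgeR). None of these ranges overlapped between the organs. The ranges and medians are on library totals and the differences use the scaling factors. On library totals alone the differences were 3.31 for GLU2, 2.96 for AT3G44190 and 2.70 for ZW9, which stands beside the shift of the median of all genes from 0.01 to 0.78.

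On the other side stood LTP5, ROC4 and PME44. LTP5 ranged over 0.897 to 20.4 CPM (median 5.2) in roots and 223 to 389.5 CPM (median 294) in shoots, a log2 difference of -6.71 ± 0.07 (SE, adjusted p = 2.57e-37, edgeR). ROC4 ranged over 16.9 to 47.8 CPM (median 30.1) and 946 to 1389.9 CPM (median 1245), at -6.20 ± 0.035 (SE, adjusted p = 1.49e-43, edgeR). PME44 ranged over 1.93 to 11.3 CPM (median 5.63) and 103 to 152 CPM (median 119), at -5.19 ± 0.066 (SE, adjusted p = 4.26e-35, edgeR). The organs did not overlap for any of them. SBP2 at -5.11, LTPG2 at -4.10 and AER at -3.86 also passed. On library totals alone the values were -5.94 for LTP5, -5.43 for ROC4, -4.42 for PME44, -4.34 for SBP2, -3.33 for LTPG2 and -3.10 for AER. All 7 lipid, sterol and cuticle genes were lower in roots than shoots with the scaling factors, and on library totals alone 3 were higher (SMO1-1, ACBP1 and ACP3), 3 lower (LTPG2, LTP5 and LACS2) and GPAT3 did not pass.

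**Figure D3:**
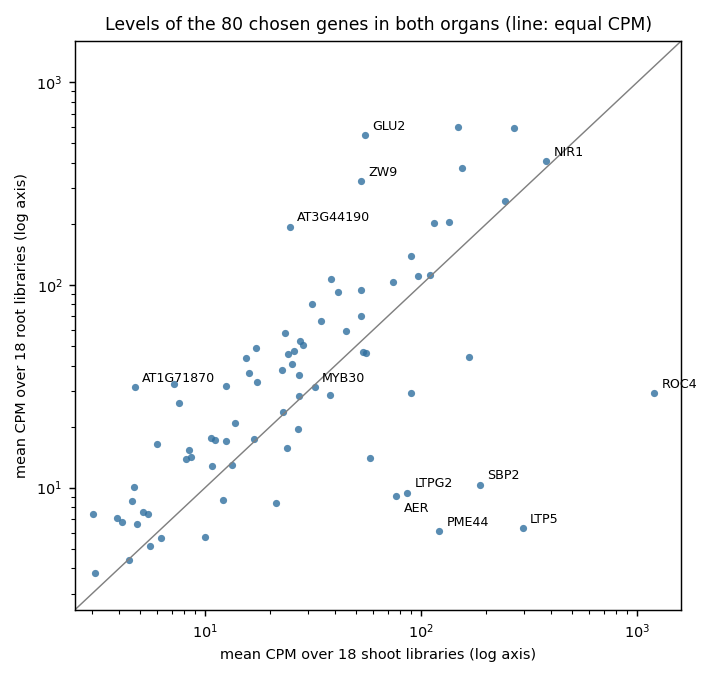
Mean CPM of the 80 genes over 18 root libraries (y axis, log) against 18 shoot libraries (x axis, log), on library totals with no scaling factors. Each point is a gene and the line marks equal CPM. On these values 58 of 80 genes (72.5%) lie above the line, as do 78.1% of the genes at the minimum level, and LTP5, ROC4, PME44 and SBP2 lie far below it.

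Mean levels over both temperatures were then compared between each mutant and Col-0, which the choice used only through its minimum of 3 CPM over all libraries of an organ. The mutants share the Col-0 libraries, so their values stand side by side and no overlap is counted. In hy5 roots 22 of 80 genes were higher and 21 lower than in Col-0, beside 23.6% higher and 23.7% lower of all 20355 genes tested. In phyAB roots 15 were higher and 25 lower, beside 22.9% and 23.5%. The shares of the 80 genes, 27.5% and 26.3% in hy5 and 18.8% and 31.3% in phyAB, stand beside these values. Without both phyAB root libraries numbered 3, phyAB roots had 12 higher and 20 lower, beside 20.8% and 21.8% of all genes. The median log2 difference of the 80 genes was 0.06 in hy5 and 0.01 in phyAB, and 0.01 and 0.00 over all genes.

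For 5 genes the level in one genotype was itself under 3 CPM, so that the minimum was met through the other genotypes and bears on the comparison. They are LTP5 in Col-0 roots (mean of 1.88 CPM), ATMPK13 in phyAB roots (2.88 CPM), ROP9 and AT1G48560 in hy5 shoots (2.34 and 2.90 CPM) and AT1G33260 in phyAB shoots (2.72 CPM). Their differences in these comparisons are given as a description, with no test. Without them the counts were 21 higher and 21 lower in hy5 roots, 14 and 24 in phyAB roots, 8 and 17 in hy5 shoots and 13 and 30 in phyAB shoots.

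In hy5 roots the highest log2 differences were those of LTP5, MYB30 and PME44, whose library values are given above. Values are log2 fold changes ± SE, with p-values adjusted by Benjamini-Hochberg over all genes tested by edgeR's quasi-likelihood test. LTP5 stood at 1.84, with no test because it met the minimum only through the mutants. MYB30 rose by 1.53 ± 0.063 (SE, adjusted p = 4.22e-13, edgeR), and its hy5 and Col-0 libraries did not overlap at either temperature. PME44 rose by 1.07 ± 0.15 (SE, adjusted p = 9.19e-06, edgeR). LTPG2 at 1.04, LBD39 at 0.93, AT1G71870 at 0.90, AAE3 at 0.77 and NIR1 at 0.75 also passed. Of the 7 nitrogen genes, 3 rose (NIR1, LBD39 and GLU2) and LBD38 fell by 0.30.

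The largest falls in hy5 roots were those of AT1G33260 at -1.02 ± 0.14 (SE, adjusted p = 8.51e-06, edgeR), LACS2 at -0.95 ± 0.083 (SE, adjusted p = 1.98e-08, edgeR) and ROC4 at -0.72 ± 0.054 (SE, adjusted p = 2.92e-09, edgeR). None of these overlapped with Col-0 at either temperature. MDAR1 at -0.56 and AT1G66430 at -0.47 also fell. The green tissue sum was lower in hy5 than in Col-0 roots, as given above, and ROC4, a gene of chloroplasts, moved with it, while LTP5 and PME44, which are also much higher in shoots, moved the other way. The part of green tissue in these values was not tested.

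In phyAB roots, on the same log2 scale, LTP5 stood at 2.35, again with no test. MYB30 rose by 0.97 ± 0.064 (SE, adjusted p = 5.63e-10, edgeR) and AT5G15220 by 0.55 ± 0.066 (SE, adjusted p = 1.39e-06, edgeR). AT5G15220 stood at 41.6, 44.4 and 40.1 CPM at 21 °C and 29.3, 32.5 and 32.1 CPM at 27 °C in Col-0 roots and at 58.1, 66.4 and 62.9 CPM at 21 °C and 44.9, 45.5 and 49.6 CPM at 27 °C in phyAB roots. LACS2 fell by 1.35 ± 0.085 (SE, adjusted p = 2.79e-10, edgeR), AT1G33260 by 1.33 ± 0.15 (SE, adjusted p = 5.79e-07, edgeR) and ANT by 1.19 ± 0.14 (SE, adjusted p = 1.61e-06, edgeR). The phyAB and Col-0 libraries of these genes did not overlap at either temperature. ROC4 at -0.73, RIP4 at -0.70 and AT1G15290 at -0.68 also fell. The green tissue sum was lower in phyAB than in Col-0 roots too, at the medians given above, and its part in these values was not tested. NIR1 and LBD39 rose by 0.28 and 0.37, and LBD38, AAP1 and PTR4 were lower.

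In hy5 shoots 8 of the 80 genes were higher and 18 lower than in Col-0, and 54 did not pass, beside 14.0% and 13.9% of the 20100 genes tested. The largest rises were those of emb1027 at 0.29 ± 0.035 (SE, adjusted p = 1.41e-05, edgeR), AT5G62290 at 0.26 ± 0.056 (SE, adjusted p = 0.00253, edgeR) and AT5G52882 at 0.25 ± 0.067 (SE, adjusted p = 0.0102, edgeR). For emb1027 the Col-0 shoots held 98.0, 88.6 and 93.1 CPM at 21 °C and 87.7, 87.2 and 85.5 CPM at 27 °C and the hy5 shoots 114, 111 and 120.3 CPM at 21 °C and 107, 104 and 103 CPM at 27 °C. AT5G62290 stood at 10.4, 9.06 and 9.86 CPM at 21 °C and 11.2, 10.7 and 9.34 CPM at 27 °C in Col-0 and 11.9, 11.8 and 10.9 CPM at 21 °C and 13.1, 12.2 and 12.4 CPM at 27 °C in hy5 shoots. AT5G52882 stood at 87.4, 78.1 and 102 CPM at 21 °C and 109, 112 and 96.0 CPM at 27 °C in Col-0 and 98.9, 113 and 102 CPM at 21 °C and 146, 122 and 112 CPM at 27 °C in hy5 shoots. Of these, AT5G52882 overlapped between the genotypes at 21 °C.

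The lowest log2 difference in hy5 shoots was that of ROP9 at -0.50, given with no test since its hy5 level was under the minimum. The largest falls with a test were those of AT1G80280 at -0.49 ± 0.063 (SE, adjusted p = 2.49e-05, edgeR) and RIP4 at -0.45 ± 0.088 (SE, adjusted p = 0.00102, edgeR). ROP9 held 3.73, 3.05 and 2.78 CPM at 21 °C and 3.07, 3.77 and 3.5 CPM at 27 °C in Col-0 and 2.70, 2.12 and 2.16 CPM at 21 °C and 1.83, 2.24 and 3.00 CPM at 27 °C in hy5 shoots. AT1G80280 held 24.5, 22.4 and 25.3 CPM at 21 °C and 28.3, 27.4 and 24.3 CPM at 27 °C in Col-0 and 18, 17.3 and 15.5 CPM at 21 °C and 20.4, 18.2 and 19.5 CPM at 27 °C in hy5 shoots. RIP4 held 7.37, 6.68 and 8.07 CPM at 21 °C and 6.38, 6.65 and 6.36 CPM at 27 °C in Col-0 and 5.54, 4.94 and 6.17 CPM at 21 °C and 4.53, 3.74 and 5.60 CPM at 27 °C in hy5 shoots. All 3 were apart from Col-0 at both temperatures, by small amounts. Of the 5 growth and division genes 3 were lower in hy5 shoots, namely ANT at -0.21, AT1G63100 at -0.33 and CYCB1;1 at -0.30.

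In phyAB shoots 13 of the 80 genes were higher and 31 lower, beside 25.1% higher and 29.1% lower of all genes. This split too depends on the scaling: on library totals alone 28 were higher and 15 lower, beside 44.3% and 15.5% of all genes, where the median of all genes moved from -0.02 to 0.14. The median of the 80 genes was -0.08 with scaling factors and 0.08 without, below that of all genes in each case. No gene passed in opposite directions. Leaving out the phyAB shoot library with the most seed transcripts at each temperature gave 13 higher and 26 lower, beside 22.5% and 26.6% of all genes. Leaving out the 3 shoot libraries with the largest share of reads at several places gave 12 and 26, beside 23.0% and 26.8%. These are the libraries numbered 3 at 27 °C of Col-0, hy5 and phyAB, at 27.8%, 34.6% and 28.8%. The other shoot libraries had at most 16.5%.

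ZW9 rose most in phyAB shoots, from 42.9, 38.1 and 49.7 CPM at 21 °C and 36.2, 38.0 and 42.3 CPM at 27 °C in Col-0 to 85.1, 78.2 and 86.3 CPM at 21 °C and 73.7, 83.3 and 77.8 CPM at 27 °C, by 0.81 ± 0.077 (SE, adjusted p = 9.97e-08, edgeR). CRK29 held 18.4, 14.9 and 19.4 CPM at 21 °C and 20.1, 21.7 and 20.4 CPM at 27 °C in Col-0 and 34.3, 29.3 and 38.1 CPM at 21 °C and 26.9, 26.0 and 30.9 CPM at 27 °C in phyAB shoots, a rise of 0.53 ± 0.099 (SE, adjusted p = 2.15e-04, edgeR). DRB5 held 12.5, 10.4 and 9.94 CPM at 21 °C and 10.5, 11.1 and 10.8 CPM at 27 °C in Col-0 and 18.1, 17.1 and 15.8 CPM at 21 °C and 15.9, 15.4 and 14.8 CPM at 27 °C in phyAB shoots, a rise of 0.41 ± 0.056 (SE, adjusted p = 7.18e-06, edgeR). For these genes the phyAB libraries lay above those of Col-0 at both temperatures.

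AT1G33260 held 5.28, 5.23 and 5.99 CPM at 21 °C and 5.85, 3.86 and 3.81 CPM at 27 °C in Col-0 shoots and 3.40, 3.16 and 2.64 CPM at 21 °C and 2.65, 2.14 and 2.30 CPM at 27 °C in phyAB shoots, a log2 difference of -1.04, with no test for the reason given above. NIR1 held 432, 429 and 398 CPM at 21 °C and 392, 425 and 375 CPM at 27 °C in Col-0 and 272, 292 and 338 CPM at 21 °C and 253, 235 and 254 CPM at 27 °C in phyAB shoots, at -0.74 ± 0.05 (SE, adjusted p = 1.35e-09, edgeR). JAZ3 held 8.50, 8.75 and 7.86 CPM at 21 °C and 7.70, 10.1 and 9.81 CPM at 27 °C in Col-0 and 6.59, 7.66 and 5.34 CPM at 21 °C and 6.80, 5.36 and 5.18 CPM at 27 °C in phyAB shoots, at -0.67 ± 0.10 (SE, adjusted p = 2.46e-05, edgeR). These phyAB libraries lay below those of Col-0 at both temperatures. ANT at -0.60, PTR4 at -0.55 and AAP1 at -0.45 fell too, and all 7 nitrogen genes passed, 3 higher and 4 lower. On library totals alone LBD39 did not pass, at -0.01, and the counts were 3 and 3.

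Whether a mutant effect differed between the organs was tested as an interaction, an analysis added after the data were seen. For hy5, 21 of the 80 genes had a higher effect in roots than in shoots and 13 a lower one, beside 12.3% and 20.3% of all genes. For phyAB the counts were 18 and 16, beside 15.5% and 21.9%. On library totals alone the phyAB counts were 10 and 25, beside 8.08% and 32.1%, and those for hy5 were 20 and 12, beside 12.4% and 19.8%. Without both phyAB root libraries numbered 3 the phyAB counts were 20 and 16, beside 15.2% and 20.3%, and without the phyAB shoot library richest in seed transcripts at each temperature 20 and 15, beside 16.2% and 18.5%. Without the genes on which the minimum bears the counts were 20 and 13 for hy5 and 17 and 15 for phyAB. MYB30 is an example, with hy5 effects of 1.53 in roots and 0.05 in shoots. NIR1 is another, with phyAB effects of 0.28 in roots and -0.74 in shoots.

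**Figure D4:**
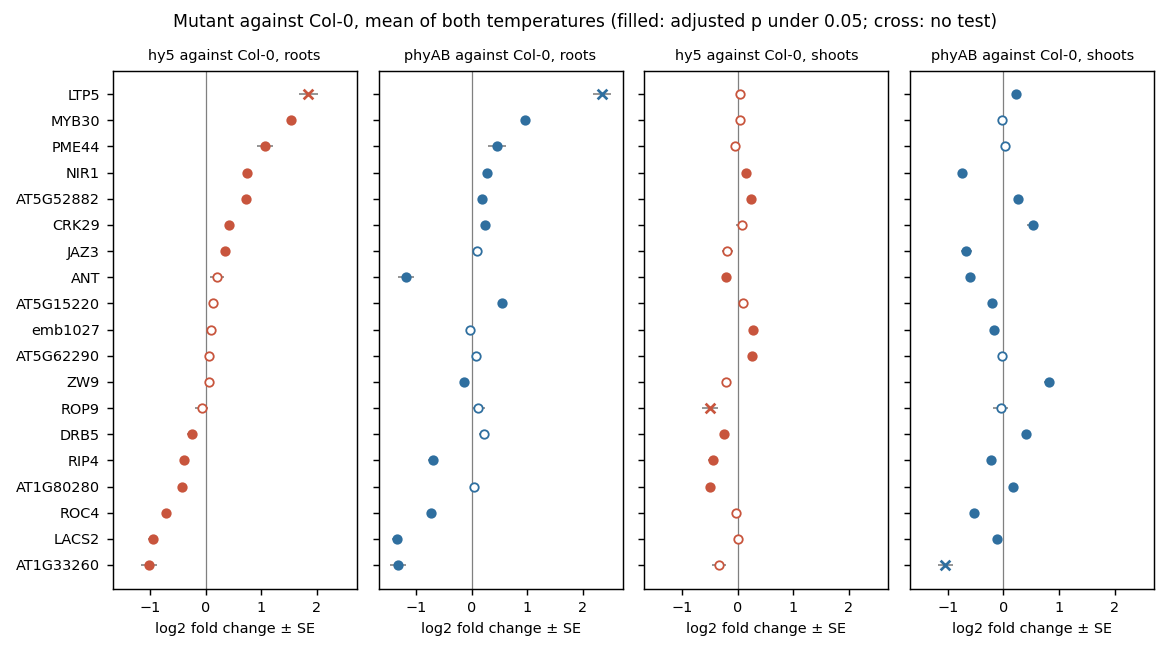
Log2 fold change ± SE (x axis) of 19 of the 80 genes in hy5 and phyAB against Col-0, in roots and in shoots, as the mean of both temperatures. Filled points passed an adjusted p of 0.05, open points did not, and crosses have no test because the minimum level bears on them. LTP5 and MYB30 lie far right in the roots of each mutant and at 0.23 or less in shoots.

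Of 21 pathway lists, 19 held none of the 80 genes. The list of nitrate and ammonium uptake and assimilation held NIR1, LBD38, LBD39 and TGA4, and its other 33 genes were read beside them, 31 of which could be tested. The list was read because it holds some of the 80 genes, and it was drawn up with earlier results of these data known. The root libraries and temperatures compared are also those that chose the 80 genes. A surplus of lower genes is therefore partly favoured by the choice, and the counts are a description. Shoot values of these genes are not given, so the counts do not show a difference in roots only. At 27 °C, 16 of these 31 were lower and 6 higher in Col-0 roots, beside 21.8% lower and 21.7% higher among all genes. In hy5 roots 16 were lower and 6 higher, beside 23.9% and 25.7%, and in phyAB roots 14 and 8, beside 19.2% and 19.2%. Their median log2 fold change was -0.46, -0.41 and -0.12, against 0.00, 0.02 and 0.01 over all genes. In phyAB the count of 8 higher genes was 5 without the library numbered 2 at 21 °C. It was also 5 without both libraries numbered 3, beside 14.2% of all genes.

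NRT2:1, a high-affinity nitrate transporter, fell from 23.9 ± 10.3 CPM at 21 °C to 3.69 ± 1.19 CPM at 27 °C (SD, n = 3), a log2 fold change of -2.76 ± 0.29 (SE, adjusted p = 8.97e-07, edgeR) in Col-0 roots. NRT2.4 of the same family was near the limit of counting, at 0.579 ± 0.144 CPM at 21 °C and 0.0869 ± 0.0727 CPM at 27 °C (SD, n = 3), a log2 fold change of -2.69 ± 0.63 (SE, adjusted p = 0.0026, edgeR). NIA1, a nitrate reductase that supplies the substrate of NIR1, fell from 91.7 ± 22.7 CPM at 21 °C to 32.8 ± 5.58 CPM at 27 °C (SD, n = 3), a log2 fold change of -1.56 ± 0.17 (SE, adjusted p = 1.01e-06, edgeR). NRT1.5, which loads nitrate into the xylem, rose from 354 ± 54.5 CPM at 21 °C to 1101 ± 105 CPM at 27 °C (SD, n = 3), a log2 fold change of 1.56 ± 0.14 (SE, adjusted p = 1.55e-07, edgeR). None of these met the choice of the 80 genes. They are the 4 largest changes of the list that passed in Col-0 roots, so their p-values are a description and not separate evidence.

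**Figure D5:**
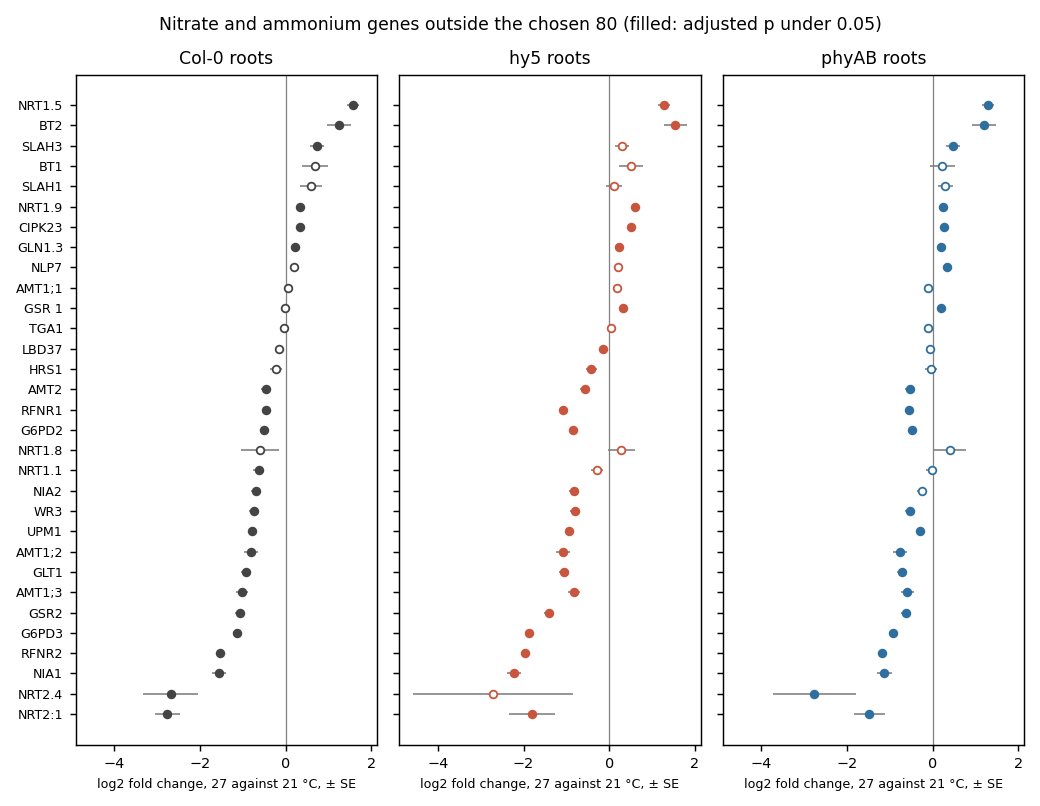
Log2 fold change ± SE between 27 °C and 21 °C (x axis) of 31 nitrate and ammonium genes outside the 80, in roots of Col-0, hy5 and phyAB. Filled points passed an adjusted p of 0.05. In Col-0, 16 genes lie below 0 and 6 above it among the filled points.

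The list of root meristem and division held CYCB1;1, and all 13 of its other genes could be tested. It was read for the same reason and on the same libraries, so its counts and the p-values of its named genes are a description too. In Col-0 roots 8 were lower at 27 °C and 0 higher, in hy5 roots 8 and 0, and in phyAB roots 4 and 0, beside 21.8%, 23.9% and 19.2% lower and 21.7%, 25.7% and 19.2% higher of all genes. With edgeR at an unadjusted p under 0.05 the numbers higher were 0 in each genotype, and DESeq2 also called 0 higher. AIL6, which the list holds as PLT3, an AP2 factor of the meristem, stood at 43.8 ± 2.20 CPM at 21 °C and 31.5 ± 1.21 CPM at 27 °C (SD, n = 3), a log2 fold change of -0.55 ± 0.10 (SE, adjusted p = 2.33e-04, edgeR) in Col-0 roots. MCM6, a subunit of the replication helicase, stood at 25.2 ± 0.328 CPM at 21 °C and 19.5 ± 0.686 CPM at 27 °C (SD, n = 3), a log2 fold change of -0.44 ± 0.067 (SE, adjusted p = 4.03e-05, edgeR), and its partner MCM3 at 40.6 ± 1.76 CPM at 21 °C and 33.1 ± 0.815 CPM at 27 °C (SD, n = 3), a log2 fold change of -0.37 ± 0.078 (SE, adjusted p = 7.97e-04, edgeR). PLT1, another AP2 factor of the root tip, stood at 14.6 ± 0.667 CPM at 21 °C and 12.2 ± 1.52 CPM at 27 °C (SD, n = 3), a log2 fold change of -0.34 ± 0.13 (SE, adjusted p = 0.0369, edgeR). CDKB2;1, SYP111, BBM, SHR and WOX5 did not pass in Col-0 roots. The log2 fold change was 0.06 for CDKB2;1 (adjusted p = 0.574, edgeR) and -0.04 for SYP111 (adjusted p = 0.765, edgeR). PLT1, PLT2, BBM and WOX5 are also the root meristem markers given above, so they are not separate evidence. On library totals alone the lower counts were 4 in Col-0 and 2 in phyAB, beside 16.2% and 16.1% of all genes. Without the Col-0 library numbered 3 at 27 °C the Col-0 count was 5. The phyAB count was 2 without the library numbered 2 at 27 °C. It was also 2 without both libraries numbered 3, beside 14.7% of all genes. A count of 2 of 13 is near these shares. Since the counts are a description, no fall of the list is read in any genotype.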

How the data were processed

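RNA-seq read counts per gene were deposited for 36 libraries. Per the submitters' processing notes the authors used TopHat2, HTSeq, FastQC and edgeR, with TAIR10 as the build. The sources used here give neither their versions nor the strand setting of the counting. The deposited counts were used as they stand. The 5 summary rows were left out of totals: reads at several places made up 5.00 to 10.4% of root libraries and 8.29 to 34.6% of shoot libraries, reads in no feature 0.697 to 1.81% and ambiguous reads 0.0566 to 0.299%.

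The members and the pathway lists were chosen with earlier results of these data known. A pair of genes that the rule names for removal did not meet it here, so 80 remained. One of the 80 genes is counted but not reported here by itself. Tests used edgeR 4.0.16 in R 4.3.3 (quasi-likelihood, TMM factors, its default filter on low counts, Benjamini-Hochberg adjustment over all genes, threshold 0.05). One model of 6 groups was fitted to the 18 root libraries (20355 genes, factors 0.945 to 1.036), one to the 18 shoot libraries (20100 genes, 0.950 to 1.103) and one of 12 groups to all 36 (21598 genes, 0.719 to 1.350). The edgeR script was tested on simulated data. DESeq2 1.42.0, other scalings, no filter, each temperature alone, a replicate block and leaving out libraries were alternatives. The counts without genes near the minimum level, those with no scaling factors, the libraries with most reads at several places and the interaction were chosen after seeing the data.

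Genes named for a difference were, in each mutant and organ and between organs, the 3 highest and 3 lowest that passed. They were picked before the genes on which the minimum level bears were set apart. The first 12 by rank, and the first 2 of each stated role, were given with their root values. CYCB1;1 was added to these after its values were seen. List genes were the 4 largest changes in Col-0 roots that passed.

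Replicate pairs differed by more than counting noise, so none was a library deposited again. Nothing given says that replicates came from separate cultures, so p-values measure the spread between samples, which may be technical. Read totals of at least 14810514 leave genes of a few CPM as the least precise.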

Additional observations from a re-analysis of the deposited data

Results flagged for a closer look

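Among the genes named for a mutant effect, several had an effect that differed between roots and shoots, by the interaction term of edgeR's fit of all 36 libraries with Benjamini-Hochberg adjustment over all genes. Values are the log2 effect in roots minus that in shoots ± SE. The effects in each organ come from that organ's own fit. The hy5 effect was higher in roots than in shoots for LTP5 (1.76, with no test, from 1.84 in roots and 0.05 in shoots), MYB30 (1.45 ± 0.079, adjusted p = 1.64e-15, from 1.53 in roots and 0.05 in shoots), PME44 (1.09 ± 0.16, adjusted p = 2.44e-06, from 1.07 in roots and -0.05 in shoots) and AT5G52882 (0.45 ± 0.086, adjusted p = 1.51e-04, from 0.73 in roots and 0.25 in shoots). The hy5 effect was lower in roots than in shoots for AT1G33260 (-0.72 ± 0.20, adjusted p = 0.00721, from -1.02 in roots and -0.33 in shoots), LACS2 (-0.99 ± 0.096, adjusted p = 1.03e-09, from -0.95 in roots and 0.01 in shoots), ROC4 (-0.72 ± 0.072, adjusted p = 1.67e-09, from -0.72 in roots and -0.02 in shoots) and emb1027 (-0.22 ± 0.054, adjusted p = 0.00242, from 0.10 in roots and 0.29 in shoots). The phyAB effect was higher in roots than in shoots for LTP5 (2.1, with no test, from 2.35 in roots and 0.23 in shoots), MYB30 (0.98 ± 0.079, adjusted p = 2.19e-11, from 0.97 in roots and -0.03 in shoots), AT5G15220 (0.73 ± 0.093, adjusted p = 2.14e-07, from 0.55 in roots and -0.20 in shoots), NIR1 (1.0 ± 0.091, adjusted p = 2.27e-10, from 0.28 in roots and -0.74 in shoots) and JAZ3 (0.75 ± 0.12, adjusted p = 6.06e-06, from 0.10 in roots and -0.67 in shoots). The phyAB effect was lower in roots than in shoots for LACS2 (-1.26 ± 0.097, adjusted p = 6.72e-12, from -1.35 in roots and -0.11 in shoots), ANT (-0.61 ± 0.16, adjusted p = 0.00368, from -1.19 in roots and -0.60 in shoots) and ZW9 (-0.97 ± 0.092, adjusted p = 7.56e-10, from -0.13 in roots and 0.81 in shoots). The genes were picked for the size of their effect in 1 organ, which favours a difference, and these values are a description of that choice. LTP5 has no test because its Col-0 roots were under the minimum level of the choice.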

How the results depend on the processing

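The 30 named fold changes between a mutant and Col-0 or between organs were recomputed under 744 alternatives in all. Of these 739 kept direction and side of the threshold, and 0 reversed. Another 5 changed side: AT5G52882 and ROP9 in hy5 shoots at either temperature alone, and CRK29 in phyAB shoots at 27 °C alone. The 30 include LTP5 in roots of each mutant, ROP9 in hy5 shoots and AT1G33260 in phyAB shoots, which have no test. For these only the direction is read. Counts moved more. With the libraries of 1 temperature alone, the members higher in hy5 roots were 14 at 27 °C and those lower 13 at 21 °C. The members lower in phyAB roots were 15 at 21 °C. In hy5 shoots 3 were higher at 27 °C, and 10 and 6 were lower at 21 °C and 27 °C. In phyAB shoots 7 were higher at 27 °C and 18 lower at 21 °C. Such contrasts hold fewer libraries, and fewer of all genes pass in them too. With no scaling factors 14.5% and 13.6% of all genes were higher in hy5 roots at 21 °C and 27 °C, beside 20.0% for both together. In hy5 shoots 9.78% and 5.40% were lower, beside 13.7%. Shares with scaling factors are not given for these contrasts, so nothing about the 80 genes is read from the smaller counts. With no scaling factors phyAB shoots had 28 higher and 15 lower, and roots against shoots 52 higher and 20 lower.

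Leaving out 1 library at a time gave 21 to 27 higher and 17 to 21 lower in hy5 roots, 13 to 19 and 21 to 25 in phyAB roots, 6 to 9 and 13 to 19 in hy5 shoots, 11 to 15 and 28 to 32 in phyAB shoots, and 27 to 28 and 43 to 45 in roots against shoots. For the nitrate list it gave 6 to 7 higher and 16 to 17 lower in Col-0, 6 to 8 and 14 to 16 in hy5, and 5 to 8 and 13 to 15 in phyAB. For the division list it gave 0 higher throughout, and 5 to 8, 7 to 10 and 2 to 5 lower in Col-0, hy5 and phyAB. Without both phyAB root libraries numbered 3, the nitrate genes higher in phyAB were 5 and the division genes lower in phyAB were 2. Of all genes 14.2% were higher and 14.7% lower there. With no scaling factors the division genes lower were 4 in Col-0 and 2 in phyAB, beside 16.2% and 16.1% of all genes. For the difference of the mutant effects between organs, leaving out 1 library gave 19 to 23 higher and 11 to 16 lower in hy5, and 15 to 21 and 14 to 17 in phyAB, where no scaling factors gave 10 and 25. The causes were not tested.

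The choice of the 80 genes itself depends on its settings. A shoot window of 0.2 kept 34 of them and one of 0.4 kept 39. Leaving out 1 library kept 69 to 79, and 17 genes were found under all 45 alternatives. Samples with the same number did not all deviate together: correlations were -0.19 to 0.37 in roots, 21 of 45 over 0.1, and -0.11 to 0.42 in shoots, 33 of 45 over 0.1. In 4 of 15 pairs of root groups and 4 of 15 pairs of shoot groups all 3 same-numbered pairs were over 0.1, among them hy5 roots at 21 °C and 27 °C (0.13 to 0.22), phyAB roots at 21 °C and 27 °C (0.20 to 0.30) and the shoots of each mutant and Col-0 at 27 °C (0.15 to 0.42 in hy5, 0.16 to 0.35 in phyAB). The shoot libraries with the largest shares of reads at several places were also those numbered 3 at 27 °C, in each genotype. Whether a number marks a shared batch is not given by the labels and is not settled here. A replicate block gave 23 higher and 21 lower in hy5 roots, 16 and 25 in phyAB roots, 8 and 22 in hy5 shoots, 14 and 33 in phyAB shoots and 22 and 44 in roots against shoots. For the warmth comparisons with the block, the nitrate genes were 7 higher and 17 lower in hy5 and 8 and 14 in phyAB roots, and the division genes lower were 9 and 5. No share of all genes stands beside the counts with the block or without 1 library. Their differences from the main counts are therefore not read as a property of the genes. Depth limits genes near 3 CPM, such as ROP9 and LTP5 in roots.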
